A study of Mus musculus with 12 samples.

Results

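The genes described here encode receptor chains for cytokines of the IL-12, IL-18 and gp130 families, whose mRNA was measured in natural killer (NK) cells sorted from lymph nodes of mice. The 7 members were taken by name. They are Il18r1 and Il18rap (the IL-18 receptor), Il12rb1 and Il12rb2 (the IL-12 receptor), Il27ra (the IL-27 receptor), Il6ra (the IL-6 receptor) and Il6st, which encodes gp130. All 7 were found among the 56748 gene IDs of the count files and all 7 were among the 16016 genes tested. Of the 12 libraries, 4 were hematogenous, from tumor-bearing nodes of mice whose diffuse large B cell lymphoma had spread by way of blood vessels. Another 4 were lymphatic, from nodes of mice in which that lymphoma had spread by lymph. The last 4 were tumor free, from C57BL/6J mice. The labels give no lymphoma line, no age or sex, and no strain for the tumor-bearing mice, and they do not say whether the libraries of a group came from separate animals. The p-values therefore rest on the spread between libraries of a group, part or all of which may be technical.

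IL-18 is bound by the chain encoded by Il18r1, and the chain encoded by Il18rap then joins the complex, which signals through the adaptor MyD88 and IRAK kinases to NF-kB. IL-12 is bound by the chains of Il12rb1 and Il12rb2, whose kinases TYK2 and JAK2 act on STAT4. IL-6 and IL-27 are bound by IL6RA and IL27RA, and both complexes signal through gp130, JAK kinases and STAT factors. NK cells are known for releasing interferon-gamma when IL-12 and IL-18 act on them together.

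Counts assigned to genes ran from 6654215 to 43494812 per library and were lowest in tumor-free replicates 1, 2 and 4, at 6654215 to 8355021. Levels are given as CPM after TMM scaling, a read count relative to the size of its library. All 12 genes of a list of NK markers were among the genes tested, and their summed level ran from 9740 to 11518 CPM in the hematogenous, from 13359 to 16355 CPM in the lymphatic and from 14778 to 16671 CPM in the tumor-free libraries. Of these 12 genes, 9 fell in the hematogenous against the tumor-free libraries, where 6.87% of all genes tested were called lower. Among the 9 was Ncr1, which encodes NKp46, an activating receptor (645 ± 147 against 1372 ± 101 CPM, mean ± SD, n = 4 each). Klrb1c, the NK1.1 gene, was at 856 ± 162 CPM in hematogenous, 842 ± 85.1 CPM in lymphatic and 1227 ± 119 CPM in tumor-free libraries. The share of reads assigned to genes was 55.35% to 65.54% in hematogenous, 67.14% to 72.07% in lymphatic and 65.65% to 70.66% in tumor-free libraries, so it was lower in every hematogenous library than in any other. Reads in no feature made up 17.5% to 24.6%, 13.9% to 17.4% and 11.4% to 21.1% in the same order, and their part in the hematogenous results was not tested. Bulk libraries cannot tell fewer cells of a type from less RNA per cell.

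Set against tumor-free nodes, NK cells from hematogenous nodes had higher mRNA of both IL-18 receptor chains, of gp130 and of the IL-6 receptor. The test called 4 of the 7 members, all of them higher, where 16.4% of all genes tested were called, 9.52% higher and 6.87% lower. The members were chosen with earlier results of these data known, so their count beside that share is a description. The call required an adjusted p under 0.05 in edgeR's quasi-likelihood test, with Benjamini-Hochberg adjustment over all genes. The same 4 members were those whose hematogenous libraries all lay above all tumor-free libraries, a pattern that 11.5% of genes tested showed, while 8.01% showed the opposite one and no member did. Il6ra, among these 4, had 0, 1, 44 and 0 tumor-free counts and passed the filter on low counts mainly through the tumor-bearing groups. It could hardly have come out lower, and its call did not hold in every alternative fit. The median log2 fold change was 0.75 over the 7 members and 0.08 over all genes tested. That median includes Il6ra, and without it the middle of the members lies between Il12rb2 (0.20) and Il18r1 (0.75). Against lymphatic nodes, 2 of the 7 members were called, both of them IL-18 receptor chains and both higher, where 8.85% of genes were called, 2.93% higher and 5.92% lower. No member was called between lymphatic and tumor-free nodes, where 2.74% of genes were called, 2.32% higher and 0.418% lower. Nor did any member separate those groups, where 7.66% of genes lay wholly higher and 2.24% wholly lower. In that comparison Il12rb2 was the member with an unadjusted p under 0.05, and DESeq2 called 0 members as well. The comparisons against tumor-free nodes share their control libraries.

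**Figure D1:**
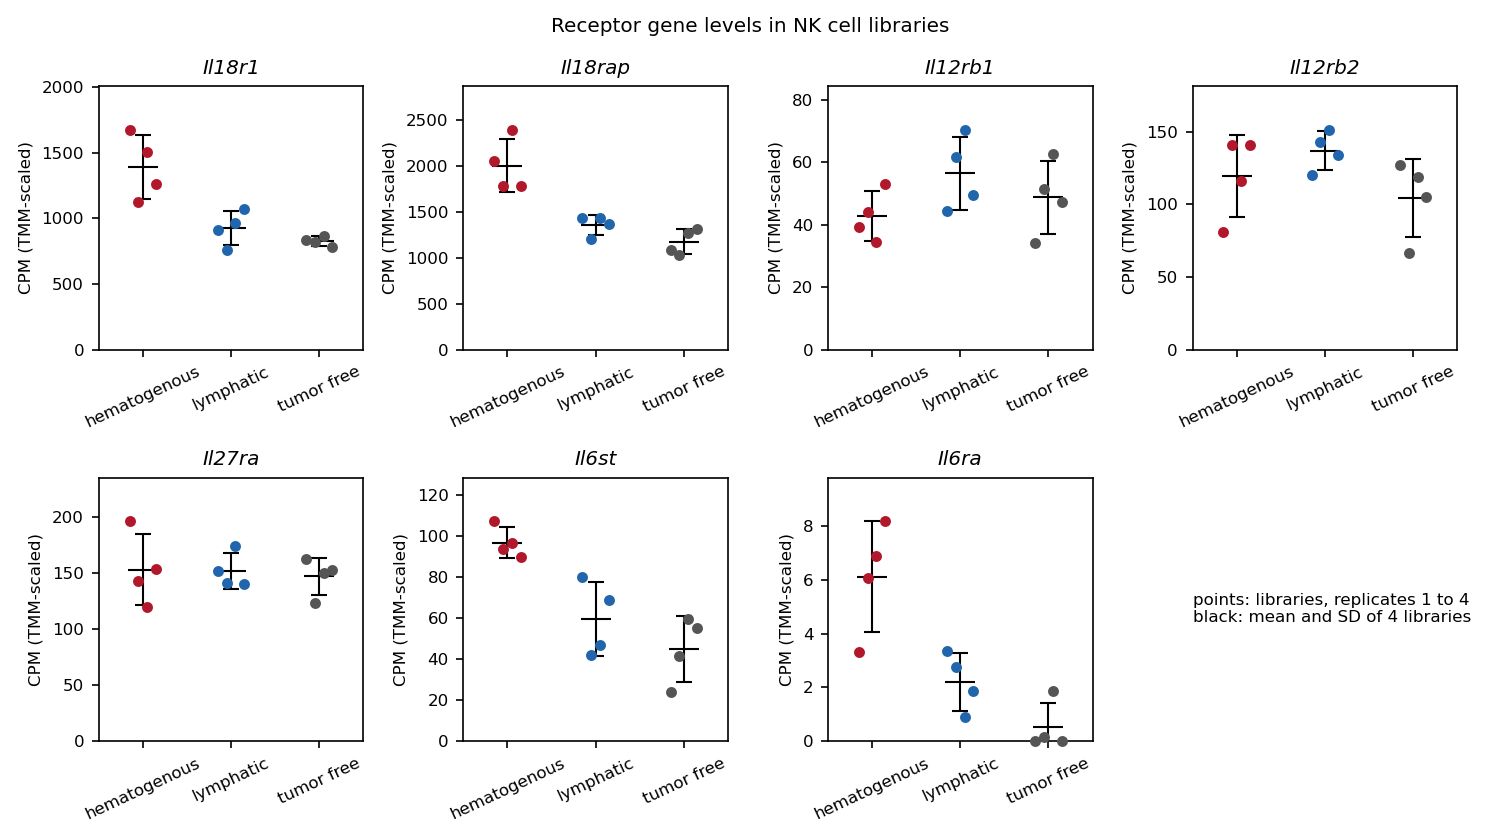
Level of each receptor gene in CPM (TMM-scaled, linear axis from 0) in the 4 hematogenous, 4 lymphatic and 4 tumor-free libraries; points are libraries and black marks are mean and SD. The hematogenous points of Il18r1, Il18rap, Il6st and Il6ra lie above all tumor-free points, and those of Il27ra overlap with both other groups.

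The gene of the ligand-binding IL-18 receptor chain, Il18r1, had 1673, 1125, 1505 and 1260 CPM in hematogenous replicates 1 to 4. It had 914, 757, 967 and 1070 CPM in the lymphatic and 838, 821, 867 and 778 CPM in the tumor-free libraries. Every hematogenous library stood above every library of the other groups, while lymphatic and tumor-free libraries overlapped. The log2 fold change was 0.75 (SE 0.134, edgeR adjusted p = 0.00102) for hematogenous against tumor free and 0.59 (SE 0.134, edgeR adjusted p = 0.00997) for hematogenous against lymphatic. For lymphatic against tumor free it was 0.17, with a 95% interval from −0.11 to 0.45 (edgeR adjusted p = 0.667).

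Il18rap, the gene of the accessory chain without which the complex does not signal, moved alongside. Its level was 2055, 1788, 2394 and 1782 CPM in hematogenous, 1437, 1201, 1432 and 1363 CPM in lymphatic and 1089, 1029, 1272 and 1311 CPM in tumor-free libraries. Again no hematogenous library fell into the range of another group. The log2 fold change was 0.77 (SE 0.126, edgeR adjusted p = 0.000552) against tumor free and 0.56 (SE 0.126, edgeR adjusted p = 0.00896) against lymphatic. Between lymphatic and tumor free it was 0.21, with an interval from −0.05 to 0.47 (edgeR adjusted p = 0.521).

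Within a library the chains kept close to 1 ratio. The log2 ratio of Il18rap to Il18r1 counts averaged 0.53 ± 0.18 in hematogenous, 0.56 ± 0.15 in lymphatic and 0.50 ± 0.19 in tumor-free libraries (SD, n = 4 each). It lay between 0.30 and 0.75 in all 12 libraries. The hematogenous mean exceeded the tumor-free mean by 0.03 (exact permutation test, two-sided p = 0.771, adjusted exact p = 0.83 over 9 tests of chain ratios). With 4 libraries against 4 the smallest possible exact p is 0.0286.

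**Figure D2:**
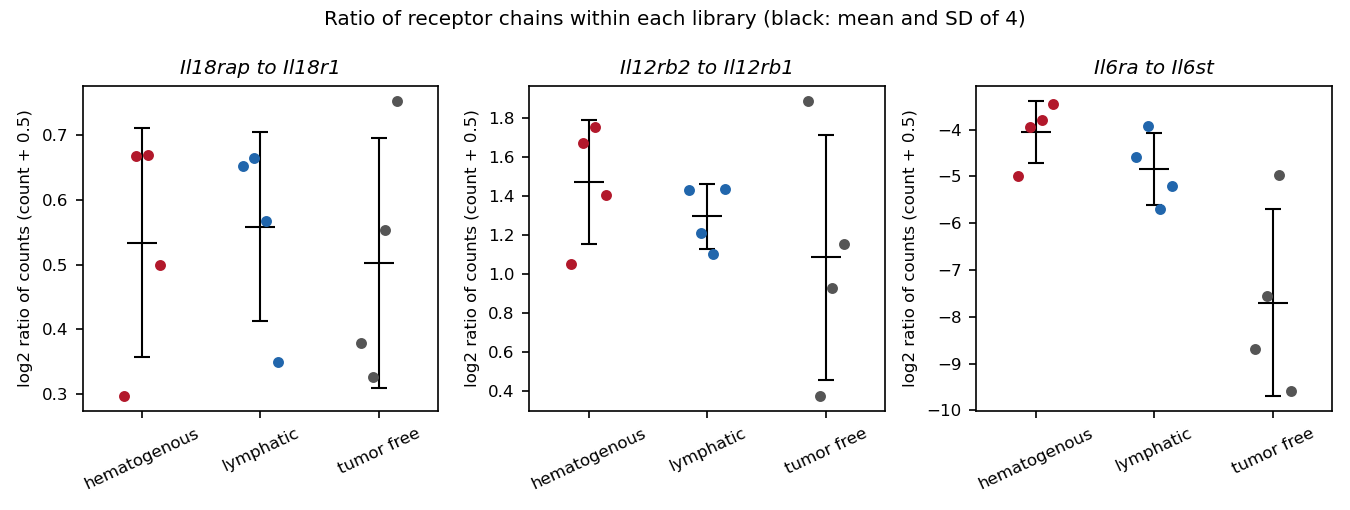
Log2 ratio of the counts of 2 receptor chains within each library, 0.5 added to each count, for the 3 groups; points are libraries and black marks are mean and SD of 4. Ratios of Il18rap to Il18r1 lie between 0.30 and 0.75 in every group, while those of Il6ra to Il6st reach down to −9.59 in the tumor-free group.

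Il18r1 and Il18rap lie next to each other on mouse chromosome 1, at the end of a run of IL-1 receptor family genes, in the order Il1r2, Il1r1, Il1rl2, Il1rl1, Il18r1 and Il18rap. The neighbours were read far less. Il1r1, the gene of the IL-1 receptor, had 96, 18, 86 and 59 counts in hematogenous, 126, 25, 14 and 24 in lymphatic and 0, 0, 30 and 0 in tumor-free libraries. It rose in hematogenous against tumor-free libraries (log2 fold change 3.64, SE 1.16, edgeR adjusted p = 0.0375), although the groups overlapped. Il1r1 passed the filter on low counts mainly through the tumor-bearing groups, so it could hardly have come out lower there. The call was lost when any 1 of 7 libraries was left out, among them tumor-free replicates 1, 2 and 4, lymphatic replicate 4 and hematogenous replicates 1, 3 and 4, with log2 fold changes of 3.22 to 3.75. Il1rl1, the IL-33 receptor gene, stood at 2.67 ± 1.15 against 1.43 ± 1.27 CPM in the same comparison (edgeR adjusted p = 0.588). Il1rl2, the IL-36 receptor gene, stood at 8.89 ± 3.25 against 7.11 ± 3.81 CPM (edgeR adjusted p = 0.675). Map4k4, the next gene on the other side of Il1r2, stood at 349 ± 11.8 against 290.7 ± 31.5 CPM (log2 fold change 0.26 with SE 0.115, edgeR adjusted p = 0.127).

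Promoter windows were looked up for the members, since Il18r1 and Il18rap moved together. RefSeq windows of 300 bases on build GRCm38.p6, from 250 before to 50 after a start, were held for 5 members in 7 windows, 3 of them for Il18r1. The search covered 4 motifs on both strands: the STAT motif TTCNNNGAA, the AP-1 motif TGANTCA, the T-box motif TCACACC and the Runx motif TGTGGT. Of all 32851 windows in the table, 8.30% held the first, 7.81% the second, 3.98% the third and 16.8% the last. The windows below are the most downstream Il18r1 window and that of Il18rap, as the pair that rose together, and that of Il12rb2, as a receptor gene with a STAT match that was not called. Capitals mark matches.
Il18r1, chr1:40465756-40466055, plus strand: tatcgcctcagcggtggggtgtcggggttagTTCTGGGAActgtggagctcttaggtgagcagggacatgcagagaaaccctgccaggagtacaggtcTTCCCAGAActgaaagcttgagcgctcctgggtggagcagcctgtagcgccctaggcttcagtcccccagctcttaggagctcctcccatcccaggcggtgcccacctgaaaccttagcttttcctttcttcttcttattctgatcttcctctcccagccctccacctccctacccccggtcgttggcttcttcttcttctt
Il18rap, chr1:40515112-40515411, plus strand: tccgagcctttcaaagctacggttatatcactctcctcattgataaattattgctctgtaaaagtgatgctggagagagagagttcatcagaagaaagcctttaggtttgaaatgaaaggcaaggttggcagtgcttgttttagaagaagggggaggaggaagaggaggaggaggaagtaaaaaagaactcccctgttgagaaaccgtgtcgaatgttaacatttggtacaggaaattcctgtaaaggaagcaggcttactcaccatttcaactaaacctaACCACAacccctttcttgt
Il12rb2, chr6:67376139-67376438, minus strand: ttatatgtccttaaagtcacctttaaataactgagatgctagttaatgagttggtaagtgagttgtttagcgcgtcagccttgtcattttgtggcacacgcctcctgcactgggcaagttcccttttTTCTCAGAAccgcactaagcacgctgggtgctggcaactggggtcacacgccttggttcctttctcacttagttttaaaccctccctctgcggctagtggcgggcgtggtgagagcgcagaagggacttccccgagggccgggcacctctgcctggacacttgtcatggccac
The Il18r1 window held 2 matches to the STAT motif, starting 219 and 152 bases before the start, and the other 2 Il18r1 windows held none. The Il18rap window held none of that motif and 1 match to the Runx motif on the opposite strand, starting 32 bases after the start. The Il12rb2 window held 1 STAT match, 123 bases before the start. One of those other Il18r1 windows held 1 Runx match, and the windows of Il6st and Il6ra held no match to any of the 4. A match describes letters in a window and is not a bound site.

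The IL-12 receptor genes showed no call in any comparison. Il12rb1, the chain shared with the IL-23 receptor, had 39.1, 44.2, 34.3 and 53.1 CPM in hematogenous, 44.5, 61.7, 70.4 and 49.4 CPM in lymphatic and 34.3, 51.3, 62.6 and 47.2 CPM in tumor-free libraries. All groups overlapped. The log2 fold change was −0.20 for hematogenous against tumor free, with a 95% interval from −0.62 to 0.22 (edgeR adjusted p = 0.562). It was −0.40 for hematogenous against lymphatic, with an interval from −0.82 to 0.01 (edgeR adjusted p = 0.246), and 0.21 for lymphatic against tumor free, from −0.21 to 0.62 (edgeR adjusted p = 0.741).

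Il12rb2, the chain that carries the STAT4 docking site, had 81.2, 141, 116 and 141 CPM in hematogenous, 120.0, 143, 151 and 134 CPM in lymphatic and 127, 66.6, 119 and 105 CPM in tumor-free libraries. Hematogenous replicate 1 and tumor-free replicate 2 were the low libraries of their groups, and the lymphatic libraries lay within a narrower range. For lymphatic against tumor free the log2 fold change was 0.39 (SE 0.185, unadjusted p = 0.0488, edgeR adjusted p = 0.362). For hematogenous against tumor free it was 0.20, with an interval from −0.19 to 0.58 (edgeR adjusted p = 0.533), and for hematogenous against lymphatic −0.19, from −0.58 to 0.19 (edgeR adjusted p = 0.626). In GENCODE M21, 1519 of the 3794 exon bases of Il12rb2 overlap Serbp1 on the opposite strand, which averaged 387 ± 47.4 CPM in hematogenous, 590.1 ± 122 CPM in lymphatic and 530.0 ± 38.2 CPM in tumor-free libraries. Serbp1 fell in hematogenous against tumor-free libraries (log2 fold change −0.46 with SE 0.136, edgeR adjusted p = 0.0269). The strand option of the counting is not given in the sources used here, so the Il12rb2 level is uncertain. The log2 ratio of Il12rb2 to Il12rb1 counts averaged 1.47 ± 0.32 in hematogenous, 1.30 ± 0.17 in lymphatic and 1.09 ± 0.63 in tumor-free libraries. The hematogenous and tumor-free means differed by 0.38 (exact permutation test, two-sided p = 0.343, adjusted exact p = 0.72).

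Il27ra, which pairs with gp130 to bind IL-27, was the member that differed least between groups by fitted fold change. It had 196, 143, 120 and 154 CPM in hematogenous, 152, 141, 174 and 140.0 CPM in lymphatic and 162, 123, 150 and 153 CPM in tumor-free libraries. The log2 fold changes were 0.06 against tumor free and 0.01 against lymphatic for the hematogenous group, and 0.05 for lymphatic against tumor free (edgeR adjusted p = 0.837, 0.979 and 0.945). Their 95% intervals ran from −0.24 to 0.36, from −0.28 to 0.31 and from −0.25 to 0.34, all below the log2 fold changes of 0.75 and 0.77 of the IL-18 receptor genes in hematogenous against tumor-free libraries.

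Il6st, the gene of the shared signal chain gp130, had 107, 93.8, 96.6 and 89.8 CPM in hematogenous libraries. It had 80.3, 41.8, 47.1 and 69.0 CPM in lymphatic and 23.9, 41.4, 59.4 and 55.4 CPM in tumor-free libraries. The hematogenous libraries lay close together and above all others, and lymphatic and tumor-free libraries overlapped. The log2 fold change was 1.10 (SE 0.236, edgeR adjusted p = 0.00382) for hematogenous against tumor free. For hematogenous against lymphatic it was 0.70 (SE 0.232), which did not pass at edgeR adjusted p = 0.0655. That value lies near the threshold, since DESeq2 size factors in the edgeR test gave adjusted p = 0.0448 and the DESeq2 test adjusted p = 0.0163. For lymphatic against tumor free it was 0.40, with an interval from −0.09 to 0.89 (edgeR adjusted p = 0.5). Counting separation instead of calls, Il6st joined Il18r1 and Il18rap as the 3 members whose hematogenous libraries all lay above all lymphatic ones, a pattern that 9.17% of genes tested showed, while 11.3% lay wholly lower.

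Il6ra, the chain that binds IL-6, was read at a low level. It had 35, 120, 109 and 112 counts in hematogenous, 142, 101, 15 and 44 in lymphatic and 0, 1, 44 and 0 in tumor-free libraries. In CPM these were 3.31, 6.06, 6.91 and 8.18, then 3.35, 2.76, 0.884 and 1.85, and then 0, 0.148, 1.87 and 0. Tumor-free replicate 3, the deepest library of its group, held nearly all of that group's reads. Every hematogenous library lay above every tumor-free one, and hematogenous replicate 1 lay just under lymphatic replicate 1. The log2 fold change for hematogenous against tumor free was 3.35 (SE 0.977, edgeR adjusted p = 0.0235). It rested on few tumor-free reads, and the call was lost without hematogenous replicate 3 or 4 (edgeR adjusted p = 0.0588 and 0.0569) and in a fit of those groups alone (edgeR adjusted p = 0.0551). For lymphatic against tumor free it was 1.90 (SE 0.933, edgeR adjusted p = 0.382), and without tumor-free replicate 3 it was 5.42 and called (edgeR adjusted p = 0.0119). For hematogenous against lymphatic it was 1.46, with an interval from −0.40 to 3.31 (edgeR adjusted p = 0.381). Il6ra passed the filter on low counts mainly through the tumor-bearing groups, so that among tested genes it could hardly have come out lower there.

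The log2 ratio of Il6ra to Il6st counts averaged −4.05 ± 0.67 in hematogenous, −4.85 ± 0.77 in lymphatic and −7.70 ± 2.00 in tumor-free libraries. The hematogenous mean exceeded the tumor-free mean by 3.65 (exact permutation test, two-sided p = 0.0571, adjusted exact p = 0.386). With 0 Il6ra counts in 2 tumor-free libraries the added count sets part of this difference, which was 2.42 with 2 added to each count.

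Markers of other cells moved in hematogenous against tumor-free libraries, the comparison in which Il18r1, Il18rap, Il6st and Il6ra were called. There 9.52% of all genes tested were called higher and 6.87% lower. The summed level of 11 T cell markers ran from 1116 to 1386 CPM in hematogenous, from 866 to 1207 CPM in lymphatic and from 800.0 to 1085 CPM in tumor-free libraries, and 3 of the 11 rose in hematogenous against tumor-free libraries (Cd3e, Cd8a and Cd6). The largest part of the sum was Tcf7, which averaged 648, 624 and 513 CPM in hematogenous, lymphatic and tumor-free libraries and was not called. Group means of Cd4, Cd8a, Cd8b1, Cd5 and Cd6 lay between 2.58 and 54.3 CPM, so the sum is no measure of T cell content. Cd3e, a chain of the T cell receptor complex, averaged 101 ± 20.5 CPM in hematogenous, 52.8 ± 12.4 CPM in lymphatic and 40.6 ± 24.7 CPM in tumor-free libraries. Of 10 macrophage and monocyte markers 8 were tested and 5 rose in the same comparison (Csf1r, Adgre1, Cd68, Cd14 and Mpeg1). Mpeg1 averaged 41.8 CPM in hematogenous and 10.5 CPM in tumor-free libraries (edgeR adjusted p = 0.00297). The sum of the 10 ran from 79.8 to 239 CPM in hematogenous, from 76.4 to 165 CPM in lymphatic and from 83.5 to 150 CPM in tumor-free libraries. Of 6 neutrophil markers 4 were tested and 3 rose, with sums from 3.02 to 46.1 CPM in hematogenous, from 1.25 to 3.20 CPM in lymphatic and from 0 to 2.09 CPM in tumor-free libraries. Ly6g and Retnlg stood at 0 in all lymphatic and tumor-free libraries, and Cd14 in all tumor-free ones. Of 9 markers of group 2 and 3 innate lymphoid cells 7 were tested, with 5 higher and 1 lower. Their sums ran from 264 to 387 CPM in hematogenous, from 215 to 319 CPM in lymphatic and from 166 to 244 CPM in tumor-free libraries. Of 10 B cell markers 1 rose, Pax5 (log2 fold change 1.23, edgeR adjusted p = 0.0245), which is near the share of all genes called higher. The sums of the 10 ran from 93.7 to 170 CPM, from 104 to 341 CPM and from 34.9 to 144 CPM in hematogenous, lymphatic and tumor-free libraries. Among the markers not called, Cd79a, a B cell receptor component, averaged 10.8 CPM in hematogenous and 10.1 CPM in tumor-free libraries (edgeR adjusted p = 0.936). Lyz2, the macrophage lysozyme gene, was not called either, at 91.1 and 95.4 CPM (edgeR adjusted p = 0.941). Il18r1 and Il18rap were also called in hematogenous against lymphatic libraries, where 2.93% of all genes tested were called higher and 5.92% lower. In that comparison 3 T cell, 3 neutrophil, 1 macrophage and monocyte and 1 innate lymphoid marker were higher, and none of these lists had a lower call. No B cell marker was called there, and 7 of the 12 NK markers were lower. The part of these cells in the results of the 4 called receptor genes was not tested.

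**Figure D3:**
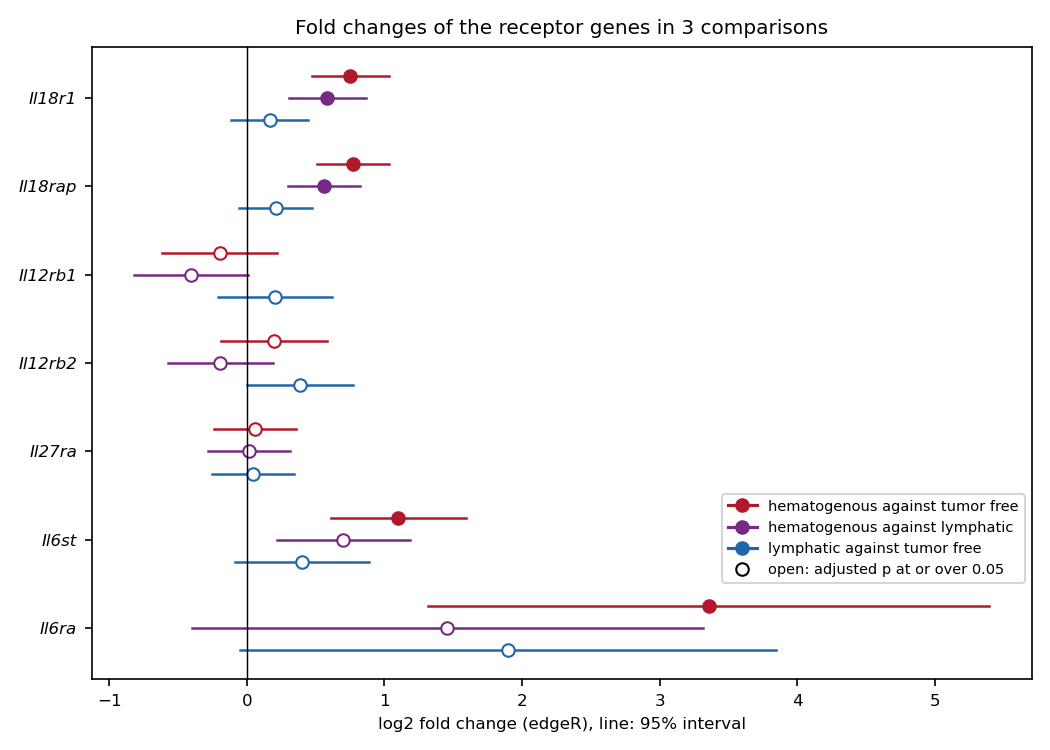
Log2 fold change of each receptor gene (edgeR) with its 95% interval for hematogenous against tumor free, hematogenous against lymphatic and lymphatic against tumor free; filled points have an adjusted p under 0.05. Il18r1 and Il18rap are filled in both hematogenous comparisons, Il6st and Il6ra against tumor free, and no point of Il12rb1, Il12rb2 or Il27ra is filled.

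Levels were set beside each other per kilobase of exon in GENCODE M21. On that scale Il18rap and Il18r1 averaged 297 ± 42.8 and 289 ± 50.9 CPM per kilobase in hematogenous, 201 ± 16.3 and 192 ± 27.1 in lymphatic and 174 ± 20.3 and 171 ± 7.69 in tumor-free libraries. These neighbours in the order differed by less than their SD in all 3 groups, and which of them was higher changed from library to library. They lay above 98.5% or more of the genes with a length in each group. Il27ra followed at 43.8 ± 9.16, 43.4 ± 4.55 and 42.1 ± 4.76 CPM per kilobase in hematogenous, lymphatic and tumor-free libraries, and Il12rb2 at 31.6 ± 7.46, 36.1 ± 3.54 and 27.5 ± 7.07. Il12rb1 stood at 10.4 ± 1.96, 13.8 ± 2.86 and 11.9 ± 2.85 and Il6st at 8.73 ± 0.675, 5.37 ± 1.64 and 4.06 ± 1.45. Il6ra stood last at 0.708 ± 0.239, 0.256 ± 0.125 and 0.0585 ± 0.106. From Il27ra down, the order was Il27ra, Il12rb2, Il12rb1, Il6st and Il6ra in all lymphatic and tumor-free libraries. Il6st stood above Il12rb1 in hematogenous replicates 1 and 3.

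The genes most like each member were taken as the 3 with the highest Pearson r of log2 CPM over the 12 libraries, among 9357 or 9358 genes with a mean of at least 5 CPM. The libraries share their groups and differ in depth, so r is a description. Il18r1 was most like Cdkn1b, the gene of the cell cycle inhibitor p27 (r = 0.96), the histone methyltransferase gene Ash1l and the ubiquitin ligase gene Mib1. Il18rap was most like Tbc1d23 (r = 0.97), Gnal and Rictor, a subunit gene of the kinase complex mTORC2. Il6st was most like Lztfl1 (r = 0.97), Fam169b and Cd3e (r = 0.96), and Il6ra was most like Dpm1 (r = 0.97), the transcription factor gene Tcf4 and Bend4. The highest r was 0.94 for Il12rb1 (Tcof1, then B4galnt1 and Ppp1r10), 0.92 for Il12rb2 (Tbccd1, then Slc20a2 and Plk3) and 0.89 for Il27ra (Fastk, then Ppm1m and Acap1).

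Genes around the receptors were taken from lists of ligands, other receptor chains, signal genes, brakes and targets, 76 genes of which 64 were tested. In hematogenous against tumor-free libraries 12 rose and 4 fell, where 9.52% of all genes tested were called higher and 6.87% lower. The 4 that fell were near that share. In lymphatic against tumor-free libraries 11 rose and none fell, where 2.32% and 0.418% of all genes were called. In hematogenous against lymphatic libraries 1 rose and 12 fell, where 2.93% and 5.92% were called. The same shares apply to the counts of each list below. Il23r is in both counts of genes that rose against tumor free, and Il27 in the hematogenous one. Without tumor-free reads these genes could come out only higher there. Il1r1, also in the hematogenous count, had 0, 0, 30 and 0 tumor-free counts and could hardly have come out lower.

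Of 13 listed ligand genes, 7 were tested. In hematogenous against tumor-free libraries 2 rose and the median log2 fold change was 0.59, and in lymphatic against tumor free and hematogenous against lymphatic, with medians of 0.69 and 0.26, none was called. Clcf1, which encodes a ligand of the CNTF receptor complex with gp130, rose to 236 ± 66.3 CPM in hematogenous libraries, against 157 ± 14.9 CPM in tumor-free libraries (log2 fold change 0.59, SE 0.162, edgeR adjusted p = 0.0173). It was not called without tumor-free replicate 1 (0.53) or hematogenous replicate 1 (0.38). Il27, a subunit gene of IL-27, had 25, 0, 20 and 15 counts in hematogenous, 19, 44, 23 and 22 in lymphatic and 0 in all 4 tumor-free libraries. Against a floor of 3 reads for the whole tumor-free group, the pooled hematogenous level was at least 15.3-fold higher. Hematogenous replicate 2 held no read, so the groups overlapped. Il27 passed the filter on low counts through the tumor-bearing groups alone, so its call (edgeR adjusted p = 0.0209) could only be higher. Voom with quality weights and the replicate block each ended that call. Il18, the ligand of the IL-18 receptor, had medians of 1.55, 1.98 and 1.53 CPM in hematogenous, lymphatic and tumor-free libraries, with no call.

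Of the other receptor chains, 8 of 13 were tested. Il1r1 and Il23r rose in hematogenous against tumor-free libraries, Il23r rose in lymphatic against tumor-free libraries, and none was called between the models. The medians were 0.60, −0.01 and 0.85 in hematogenous against tumor free, lymphatic against tumor free and hematogenous against lymphatic. Il23r, the partner of Il12rb1 in the IL-23 receptor, had 27, 25, 49 and 59 counts in hematogenous, 57, 7, 15 and 26 in lymphatic and none in tumor-free libraries. On the same floor, hematogenous libraries were at least 40.8-fold higher (edgeR adjusted p = 0.00271) and lymphatic ones at least 13.4-fold higher (edgeR adjusted p = 0.0334). The lymphatic call was lost when any 1 of 9 libraries was left out (all but lymphatic replicate 2 and hematogenous replicates 1 and 2), at equal depth, with the replicate block and with voom. The floors cover counting error only. With no tumor-free read, Il27 and Il23r passed the filter on low counts through the tumor-bearing groups alone and could come out only higher there, and they are counted among the pathway genes above. Lifr, which pairs with gp130 to bind LIF, stood at 2.97 ± 2.20, 0.208 ± 0.248 and 0.245 ± 0.490 CPM in hematogenous, lymphatic and tumor-free libraries (edgeR adjusted p = 0.151 for hematogenous against tumor free).

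All 16 signal genes were tested. Jak2 and Irak2 rose in hematogenous against tumor-free libraries, and Nfkb1 and Myd88 fell in hematogenous against lymphatic libraries. The list medians were 0.17 for hematogenous against tumor free, 0.18 for lymphatic against tumor free and −0.03 for hematogenous against lymphatic. Jak2, a kinase of IL-12 and gp130 receptors, averaged 254 ± 18.5 CPM in hematogenous and 173 ± 4.95 CPM in tumor-free libraries (log2 fold change 0.55, SE 0.119, edgeR adjusted p = 0.00394). Irak2, a kinase of the IL-1 and IL-18 receptor pathway, averaged 119 ± 19.2 CPM and 77.5 ± 16.6 CPM in the same groups (log2 fold change 0.63, SE 0.158, edgeR adjusted p = 0.0109). Myd88, the adaptor of the IL-18 receptor, averaged 53.5 ± 12.6 CPM in hematogenous and 81.0 ± 4.20 CPM in lymphatic libraries (log2 fold change −0.60, SE 0.175, edgeR adjusted p = 0.0375). Nfkb1, an NF-kB subunit gene, had a log2 fold change of −0.40 in that comparison (SE 0.109, edgeR adjusted p = 0.0268). Both calls were lost with DESeq2 size factors in the edgeR test (adjusted p = 0.0613 for Myd88 and 0.0541 for Nfkb1) and without hematogenous replicate 1, 2 or 3, among other libraries. Stat4, the IL-12 signal factor, stood at 309 ± 30.8, 356 ± 41.8 and 347 ± 36.4 CPM in hematogenous, lymphatic and tumor-free libraries. Its log2 fold change was −0.16 for hematogenous against tumor free and 0.04 for lymphatic against tumor free (edgeR adjusted p = 0.403 and 0.941).

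All 14 brakes were tested, with 4 higher and 1 lower in hematogenous against tumor free, 3 higher in lymphatic against tumor free and 1 in each direction in hematogenous against lymphatic. The medians were 0.06, 0.11 and −0.17. Socs3, which encodes an inhibitor bound to gp130, averaged 59.2 ± 30.4 CPM in hematogenous, 84.6 ± 26.8 CPM in lymphatic and 30.1 ± 3.76 CPM in tumor-free libraries. It rose in both models against tumor free, by 0.97 in the hematogenous (SE 0.268, edgeR adjusted p = 0.0174) and by 1.49 in the lymphatic libraries (SE 0.269, edgeR adjusted p = 0.00282). The hematogenous call was lost without tumor-free replicate 4 (0.92) or hematogenous replicate 4 (0.55), and voom with quality weights ended both. Tnfaip3 and Nfkbia, feedback genes of NF-kB, rose by 2.37 and 0.78 in hematogenous and by 2.97 and 1.12 in lymphatic libraries. Ptpn6, the gene of the phosphatase SHP-1, fell to 160 ± 45.6 CPM in hematogenous libraries, against 348 ± 39.3 CPM in lymphatic and 335 ± 56.5 CPM in tumor-free libraries (log2 fold change −1.07 against tumor free, SE 0.170, edgeR adjusted p = 0.00043). Cish, a STAT5 feedback gene, was higher in hematogenous than in lymphatic libraries (22.7 ± 2.07 against 11.1 ± 4.24 CPM, log2 fold change 1.04 with SE 0.284, edgeR adjusted p = 0.027), a call lost without lymphatic replicate 1 or 4 or hematogenous replicate 3. Il18bp, whose product binds and blocks IL-18, had 26.5, 10.7, 18.9 and 14.5 CPM in hematogenous, 7.96, 7.74, 11.5 and 8.73 CPM in lymphatic and 8.30, 0, 7.28 and 6.19 CPM in tumor-free libraries. All hematogenous libraries lay above all tumor-free ones, and the log2 fold change of 1.67 (SE 0.580) stood at edgeR adjusted p = 0.0544.

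Of 20 targets of these cytokines 19 were tested, with 2 higher and 3 lower in hematogenous against tumor free, 6 higher in lymphatic against tumor free and 8 lower in hematogenous against lymphatic. The medians were −0.14, 0.76 and −0.68. Ifng, the gene of interferon-gamma, averaged 59.8 ± 15.3 CPM in hematogenous, 190 ± 72.5 CPM in lymphatic and 64.8 ± 17.8 CPM in tumor-free libraries. Its log2 fold change was −1.67 for hematogenous against lymphatic (SE 0.231, edgeR adjusted p = 0.000321) and −0.11 for hematogenous against tumor free, where it was not called (edgeR adjusted p = 0.795). In lymphatic against tumor-free libraries Ifng rose by 1.56 (SE 0.231, edgeR adjusted p = 0.000417) and Ccl3 by 1.96 (edgeR adjusted p = 0.000641). The hematogenous libraries, which were highest in both IL-18 receptor genes, were thus below the lymphatic libraries in Ifng. Ccl3, a chemokine gene, fell in hematogenous against lymphatic libraries by 2.28 (SE 0.282, edgeR adjusted p = 0.000257) and Xcl1, which encodes another chemokine, by 2.39 (SE 0.336, edgeR adjusted p = 0.0015). Tbx21, the gene of the transcription factor T-bet, averaged 169 ± 34.3 CPM in hematogenous, 270 ± 46.8 CPM in lymphatic and 286 ± 21.4 CPM in tumor-free libraries (log2 fold change −0.77 against tumor free, SE 0.147, edgeR adjusted p = 0.00173). Il2ra, the high-affinity IL-2 receptor chain, rose in hematogenous against tumor-free libraries by 1.30 (SE 0.286, edgeR adjusted p = 0.00454). Cd69, an early activation marker, rose against tumor free in both models, by 1.09 in hematogenous and 1.41 in lymphatic libraries.

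**Figure D4:**
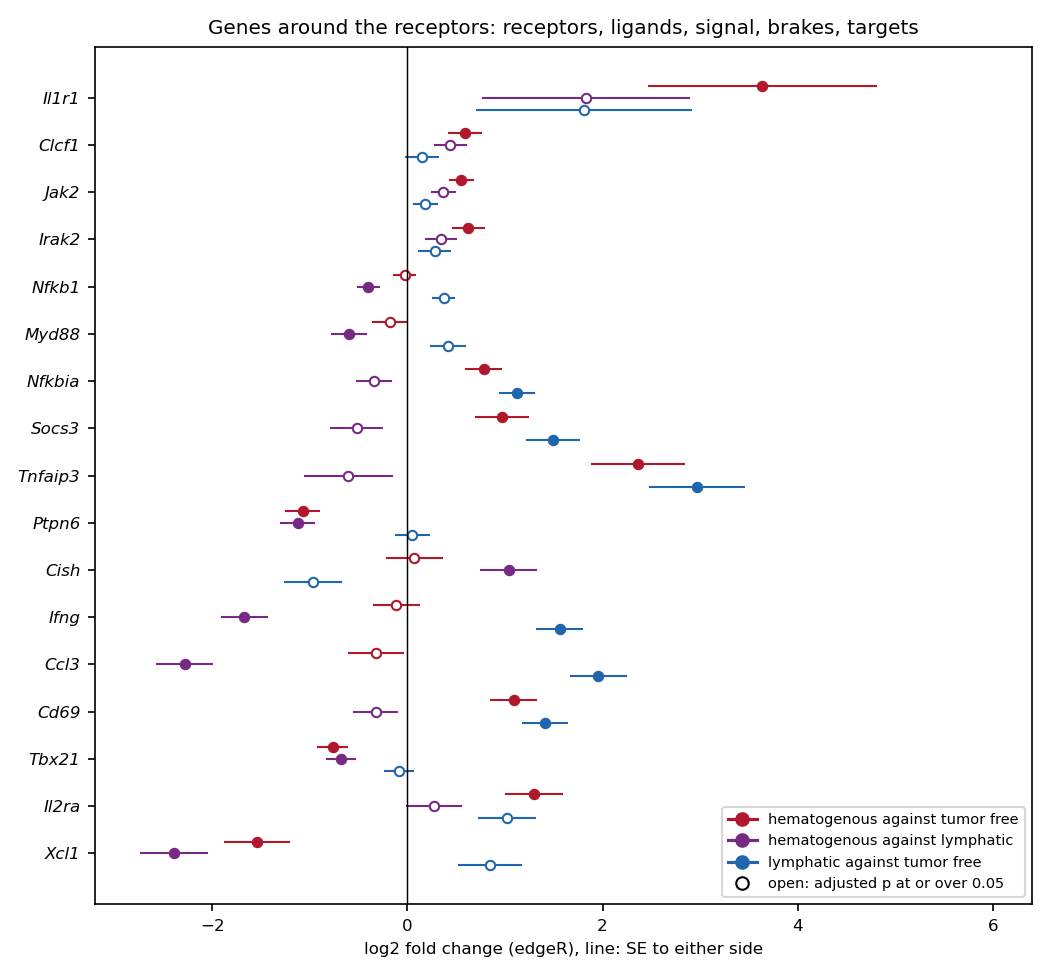
Log2 fold changes (edgeR, line: SE to either side) in 3 comparisons of genes picked from the lists of other receptors, ligands, signal genes, brakes and targets. They were picked from the up to 3 called genes per list and comparison with the smallest adjusted p, so other genes described in the text are not drawn. Filled points have an adjusted p under 0.05, and genes at 0 counts in all tumor-free libraries are left out. Ifng, Ccl3 and Xcl1 lie at −1.67, −2.28 and −2.39 in hematogenous against lymphatic, while Jak2 and Irak2 are filled at 0.55 and 0.63 in hematogenous against tumor free.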

How the data were processed

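Each library's deposited file holds raw counts by gene ID plus 5 summary lines, which were left out; the line for reads in no feature held 11.4% to 24.6% of reads. Per the labels' protocols, poly(A) RNA gave stranded single-end libraries. The tools named in the submitters' processing notes are HTSeq 2.0.2, HISAT2 2.1.0, Trimmomatic 0.39 and FastQC 0.11.9, and the build is GRCm39. Whether counting used strand is not given in the sources used here. Reads over overlapping genes may have gone to the ambiguous line, which held 1.55% to 2.12% of reads, and so be missing from those genes. Symbols and exon lengths came from GENCODE M21, an older build, and matched 52073 gene IDs (91.8%).

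Groups and replicate numbers came from the sample titles. edgeR 4.0.16 in R 4.3.3 was run on all 12 libraries with group alone (TMM, default filter by group, robust quasi-likelihood F test, 9 residual degrees of freedom). SE is the absolute log2 fold change over the square root of F, and intervals are 95%. Two-sided exact permutation tests were used for chain ratios. Same-numbered libraries of different groups did not deviate together (r from −0.07 to 0.06), so no pairing was used. Alternatives were other scalings, filters and tests (DESeq2 1.42.0, limma 3.58.1), a replicate block, the compared groups alone, equal depth of 6654215 counts and leaving out each library. Intervals and floors cover counting error or library spread as stated, since reads carry no molecular identifiers. Named genes were the members, up to 3 called genes per list and comparison with the smallest adjusted p, the 3 genes most like each member, and Ifng, Stat4, Il18bp, Socs3, Ncr1, Klrb1c, Cd3e, Cd79a and Lyz2. Map4k4, Il18, Il1rl1, Il1rl2 and Lifr were named as neighbours or ligand and receptor partners after their values were seen, and Serbp1 for its overlap. The members and lists were chosen with earlier results of these data known. A gene that the rule also chose is not reported here.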

Additional observations from a re-analysis of the deposited data

Results flagged for a closer look

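Tumor-free replicate 3 stood far from the rest of its group for Il6ra, at 1.87 CPM (44 counts), where replicates 1, 2 and 4 had 0, 0.148 and 0 CPM. It was the deepest tumor-free library, at 23674960 gene counts. Of 30 groups of 4 libraries examined this way (7 genes and 3 chain ratios in 3 groups), 1 stood out, and chance gives about 1 in 20.

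The change of Il18r1 against tumor free differed between the models by 0.59 on the log2 scale (hematogenous minus lymphatic, edgeR adjusted p = 0.00997), and that of Il18rap by 0.56 (edgeR adjusted p = 0.00896). For both genes 4 of 4 hematogenous libraries lay above all lymphatic ones.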

How the results depend on the processing

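Il18r1, Il18rap and Il6st kept their call in hematogenous against tumor free, and Il18r1 and Il18rap in hematogenous against lymphatic, under all 21 alternatives, with log2 fold changes for Il18r1 of 0.65 to 0.85 and 0.43 to 0.72. Of 441 values of members under an alternative, 426 kept their side of the threshold, 12 newly passed and 3 no longer passed, all 3 of them for Il6ra in hematogenous against tumor free. The number of members called was 4, 2 and 0 with the replicate block, as without it, in hematogenous against tumor free, hematogenous against lymphatic and lymphatic against tumor free. In hematogenous against lymphatic 4 members were called with voom and quality weights and 4 in a fit of those groups alone, Il6st and Il6ra being the added genes. Leaving out 1 library gave 3 to 4, 2 to 3 and 0 to 1 members in the same order, the last being Il6ra without tumor-free replicate 3. Pathway genes called numbered 7 to 15 in hematogenous against lymphatic when 1 library was left out (13 with all), with 7 without hematogenous replicate 3. No chain ratio passed under any alternative, and with 3 libraries against 4 the smallest exact p is 0.0571.

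Over all genes, 439 were called in lymphatic against tumor free, 729 with DESeq2 and 255 without lymphatic replicate 4. In hematogenous against lymphatic 1417 were called, 2923 with voom, 811 without hematogenous replicate 1 and 620 without either lymphatic replicate 2 or hematogenous replicate 3. With library sizes unscaled, 744 genes were higher and 590 lower there, against 469 and 948 in the TMM fit, which moved the median of all genes from −0.01 to 0.10. The same setting gave 295 higher and 108 lower against 372 and 67 in lymphatic against tumor free. The causes were not tested. Il6ra had 45 tumor-free counts in all, and its hematogenous call held at equal depth.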

Other observations

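Some genes of the IL-1 and IL-6 families were read in too few libraries to be tested and are given as counts. Il1r2, which encodes the decoy receptor for IL-1 and lies beside Il1r1, had 165 counts over the hematogenous group, 13 over the lymphatic group and 0 over the tumor-free group. Il6 had 45, 26 and 0 counts over the hematogenous, lymphatic and tumor-free groups. Il12b, a subunit gene of IL-12 and IL-23, had 7, 16 and 0 counts, and Il23a 18, 17 and 0. The groups differ in depth, so these counts do not compare levels. Pooled over the group, Il12b stood at 0.117 CPM in hematogenous and 0.134 CPM in lymphatic libraries, and Il23a at 0.301 and 0.142 CPM. Ctf1 and Cntfr had 0 counts in all 12 libraries.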
